A study of Mus musculus with 18 samples.

Results

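The interferon-stimulated and antigen processing genes described here are 39 listed mouse genes, of which 36 could be measured, out of 18193 genes on the array. They were followed across 6 groups of sorted dermal cells. A gene was measured where a probe set carried its symbol alone, and where there were several such probe sets the brightest on average over the 18 arrays stood for it. Isg15 and Gbp4 were carried only by probe sets with several symbols and Ifi44 by no named probe set, so these 3 were not analysed here. The 36 genes comprised 4 transcription factors, 9 sensors and regulators, 14 antiviral effectors, 3 membrane proteins, 3 GTPases and 3 genes of antigen processing. Of these genes, 21 had 1 probe set and 15 had more.

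RNA of sorted mouse dermal cells was measured on the Mouse Genome 430 2.0 array of Affymetrix, with 3 arrays per group. All cells came from R26mTmG reporter mice, in which red fluorescence is exchanged for green in a cell, and in its descendants, once Cre recombinase has acted. EPF cells were green and not red, and ENF cells red and not green, both from the dorsal dermis of En1Cre; R26mTmG mice labelled postnatal day 56. Oral cells (oral mucosa) and Cranial cells (cranial dermis) were the green cells of Wnt1Cre; R26mTmG mice at postnatal day 30. Ventral and Dorsal cells were the green cells of the belly and back dermis of En1Cre; R26mTmG mice at postnatal day 30. The labels' protocols put back skin cells at 30 days, so the age of EPF and ENF is not settled. No group was treated, and every sort excluded dead cells by DAPI and cells with EpCAM, CD31, CD45, Tie2 or what the labels spell Tie119. Green marks any cell whose ancestor expressed the Cre driver, En1 or Wnt1, whatever it has become since. The Wnt1 driver was used only at the head sites and the En1 driver only at the trunk sites, so driver and body region cannot be told apart.

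Interferons are secreted cytokines that bind cell-surface receptors and act through JAK kinases and STAT proteins. Type I interferon assembles the ISGF3 complex, which includes STAT2 and IRF9 and binds interferon-stimulated response elements (ISRE). Interferon gamma acts at gamma-activated sites (GAS) and through IRF1. Many interferon-stimulated genes are expressed at a low level without infection, and fibroblasts are a cell type in which this tonic expression is well known. Bulk values cannot tell fewer expressing cells from less RNA per cell.

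The promoters of 6 of these genes are shown as examples that hold, or lack, the sequence classes named above. They were not ranked by difference. Oasl2, Irf9, Ifitm1 and Cmpk2, which were called in comparisons below, held neither class and are not shown. Letters are from RefSeq, assembly GRCm38.p6, each window reaching from 250 bases before to 50 bases after the annotated start and read 5′ to 3′ on the strand of the gene. Capitals mark matches to the ISRE core GAAANNGAAA, searched on both strands (TTTCNNTTTC in reverse), or to the GAS core TTCNNNGAA, which reads the same on both strands.
Bst2 promoter, GRCm38.p6 chr8:71537423-71537722, minus strand: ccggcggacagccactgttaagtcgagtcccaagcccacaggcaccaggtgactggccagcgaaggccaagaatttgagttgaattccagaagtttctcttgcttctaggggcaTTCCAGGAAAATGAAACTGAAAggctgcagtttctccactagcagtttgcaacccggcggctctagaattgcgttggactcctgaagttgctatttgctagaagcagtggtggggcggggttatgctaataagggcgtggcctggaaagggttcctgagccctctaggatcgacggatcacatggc
Ifitm3 promoter, GRCm38.p6 chr7:141010695-141010994, minus strand: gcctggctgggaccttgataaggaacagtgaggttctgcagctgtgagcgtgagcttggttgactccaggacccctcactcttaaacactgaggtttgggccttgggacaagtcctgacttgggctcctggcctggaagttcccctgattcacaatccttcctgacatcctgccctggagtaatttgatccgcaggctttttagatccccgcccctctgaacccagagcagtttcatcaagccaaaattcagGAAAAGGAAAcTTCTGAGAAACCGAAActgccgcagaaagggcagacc
Gbp3 promoter, GRCm38.p6 chr3:142559794-142560093, plus strand: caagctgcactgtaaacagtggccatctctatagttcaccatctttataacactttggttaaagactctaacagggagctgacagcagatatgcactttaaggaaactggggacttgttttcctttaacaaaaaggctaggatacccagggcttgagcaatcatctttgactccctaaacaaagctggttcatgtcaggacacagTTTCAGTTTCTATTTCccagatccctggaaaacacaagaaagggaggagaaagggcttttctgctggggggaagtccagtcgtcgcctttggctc
Gbp2 promoter, GRCm38.p6 chr3:142620413-142620712, plus strand: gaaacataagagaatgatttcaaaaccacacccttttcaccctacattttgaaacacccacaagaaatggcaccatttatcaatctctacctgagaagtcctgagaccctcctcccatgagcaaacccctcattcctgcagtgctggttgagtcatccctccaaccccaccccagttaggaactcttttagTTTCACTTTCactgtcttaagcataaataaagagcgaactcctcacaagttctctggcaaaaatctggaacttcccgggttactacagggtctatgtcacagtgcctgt
Ifit1 promoter, GRCm38.p6 chr19:34640639-34640938, plus strand: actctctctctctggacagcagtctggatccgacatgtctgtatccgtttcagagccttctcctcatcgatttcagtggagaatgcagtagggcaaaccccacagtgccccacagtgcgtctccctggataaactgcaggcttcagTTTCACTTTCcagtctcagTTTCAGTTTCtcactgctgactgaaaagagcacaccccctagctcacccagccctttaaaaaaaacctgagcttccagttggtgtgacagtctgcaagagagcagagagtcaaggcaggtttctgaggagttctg
Psmb9 promoter, GRCm38.p6 chr17:34187281-34187580, minus strand: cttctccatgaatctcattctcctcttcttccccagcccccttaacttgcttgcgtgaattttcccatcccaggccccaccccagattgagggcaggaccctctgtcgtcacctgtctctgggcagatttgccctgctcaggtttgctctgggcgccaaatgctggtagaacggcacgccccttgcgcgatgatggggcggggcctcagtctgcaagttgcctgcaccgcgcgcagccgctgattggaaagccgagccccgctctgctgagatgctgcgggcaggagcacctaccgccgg

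In Bst2, 2 ISRE matches began 130 and 124 bases before the start and overlapped each other, and a GAS match at 136 bases before it overlapped the first of them. In Ifitm3, 2 ISRE matches lay just after the start, at 3 and 20 bases, with a GAS match at 14 bases that overlaps one of them. Gbp3 held 2 overlapping ISRE matches at 45 and 39 bases before the start, Gbp2 held 1 at 59 bases and Ifit1 held 2 at 104 and 85 bases. Psmb9 held neither motif, and its window shares 275 bases with that of Tap1, its neighbour on the opposite strand. Of the 36 genes, 29 had a promoter window, and the ISRE core occurred in 13 of them (44.8%), against 3.63% of the 14452 genes on the array with a window and 3.44% of all 32851 windows. The GAS core occurred in 11 of the 29 (37.9%), against 8.57% of the array's genes and 8.3% of all windows. Counted per gene over all its windows, both motifs occurred for 5 genes and neither for 10. A match is a description of these letters and not a binding site.

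Averaged over the 36 genes, the Oral cells had the lowest level of the 6 groups, with little spread between arrays. The mean log2 expression over the 36 genes was 9.05, 8.54 and 8.73 on the 3 EPF arrays and 8.77, 8.62 and 9.12 on the 3 ENF arrays. It was 7.16, 7.07 and 7.06 on the Oral arrays, 8.35, 8.33 and 8.34 on the Cranial arrays, 7.03, 7.93 and 7.96 on the Ventral arrays, and 7.76, 7.23 and 8.86 on the Dorsal arrays. The EPF and ENF arrays overlapped, every Oral array lay below every Cranial array, and the Ventral and Dorsal arrays spread widely, with Ventral array 1 below every Oral array and Dorsal array 3 above every Cranial array. The mean over all 18193 genes lay between 6.55 and 6.70 on every array. Among the 4 sites, Oral had the lowest mean for 30 of the 36 genes, where it was lowest for 19.4% of all genes, and the highest for 0. Cranial had the highest mean for 18 genes, Ventral for 5 and Dorsal for 13, where they were highest for 20.2%, 27.0% and 30.1% of all genes.

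**Figure D1:**
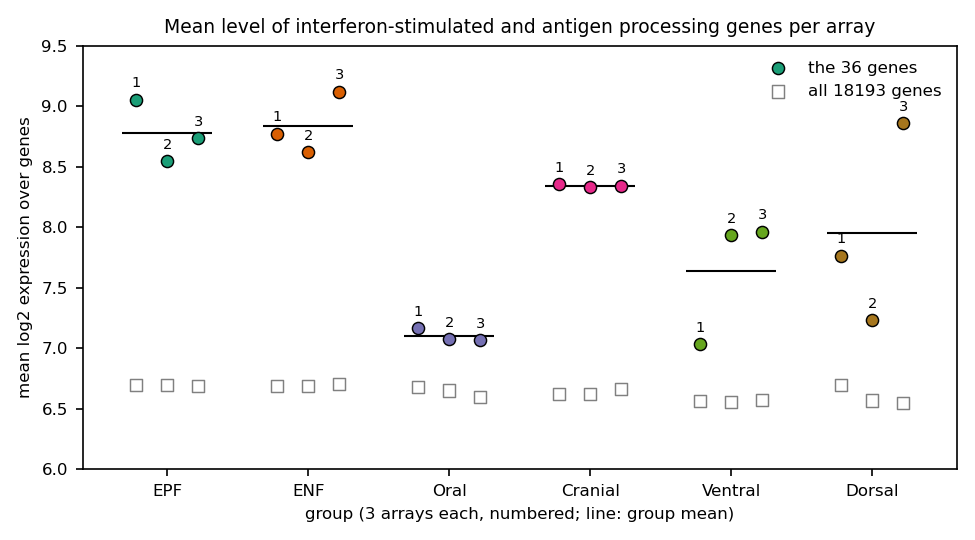
Mean log2 expression over the 36 genes on each array (filled points, numbered, with a line at the mean of the 3 arrays) and over all genes (open squares), for the 6 groups. The Oral arrays sit between 7.06 and 7.16 and the Cranial arrays between 8.33 and 8.35, while the Dorsal arrays reach from 7.23 to 8.86.

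The genes varied more between arrays of one group than a typical gene did in every group but Cranial. The median SD over 3 arrays was 0.312 for the 36 genes in EPF and 0.405 in ENF, against 0.184 and 0.249 for all genes. It was 0.519 in Ventral and 0.826 in Dorsal, against 0.141 and 0.281 for all genes. In Oral it was 0.158, against 0.134 for all genes, and in Cranial 0.084, against 0.104. Dorsal array 3 was the highest of its group for 32 of the 36 genes, against 31.4% of all genes, and Dorsal array 2 was the lowest for 24, against 24.7%. Ventral array 1 was the lowest of its group for 32, against 35.9%. Dorsal array 3 exceeded Dorsal array 2 by more than 1 log2 unit for 24 of the 36 genes, against 3.08% of all genes. The 14 constitutive proteasome subunits, which are housekeeping genes, had 0 genes with that gap, and 14 genes of MHC class I and its loading had 5. Set against Dorsal array 1 instead, Dorsal array 3 was higher by more than 1 unit for 20 of the 36 genes, against 4.78% of all genes, and lower for 13 of the 14 proteasome subunits (median -0.67). The labels do not say that the 3 arrays of a group came from separate animals, so p-values below measure the spread between arrays, which may be technical. Cranial arrays 1 and 2 were the closest pair of the series, with a correlation of 0.9982 over all genes and a median absolute difference of 0.0853. Over all genes Dorsal array 1, not array 3, stood furthest from its group. It correlated at 0.9666 with Dorsal array 2 and 0.9459 with Dorsal array 3, while arrays 2 and 3 correlated at 0.9749. Dorsal array 1 exceeded Dorsal array 2 by more than 1 unit for 11.4% of all genes. Dorsal array 2 correlated more closely with Ventral array 3, at 0.9911.

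**Figure D2:**
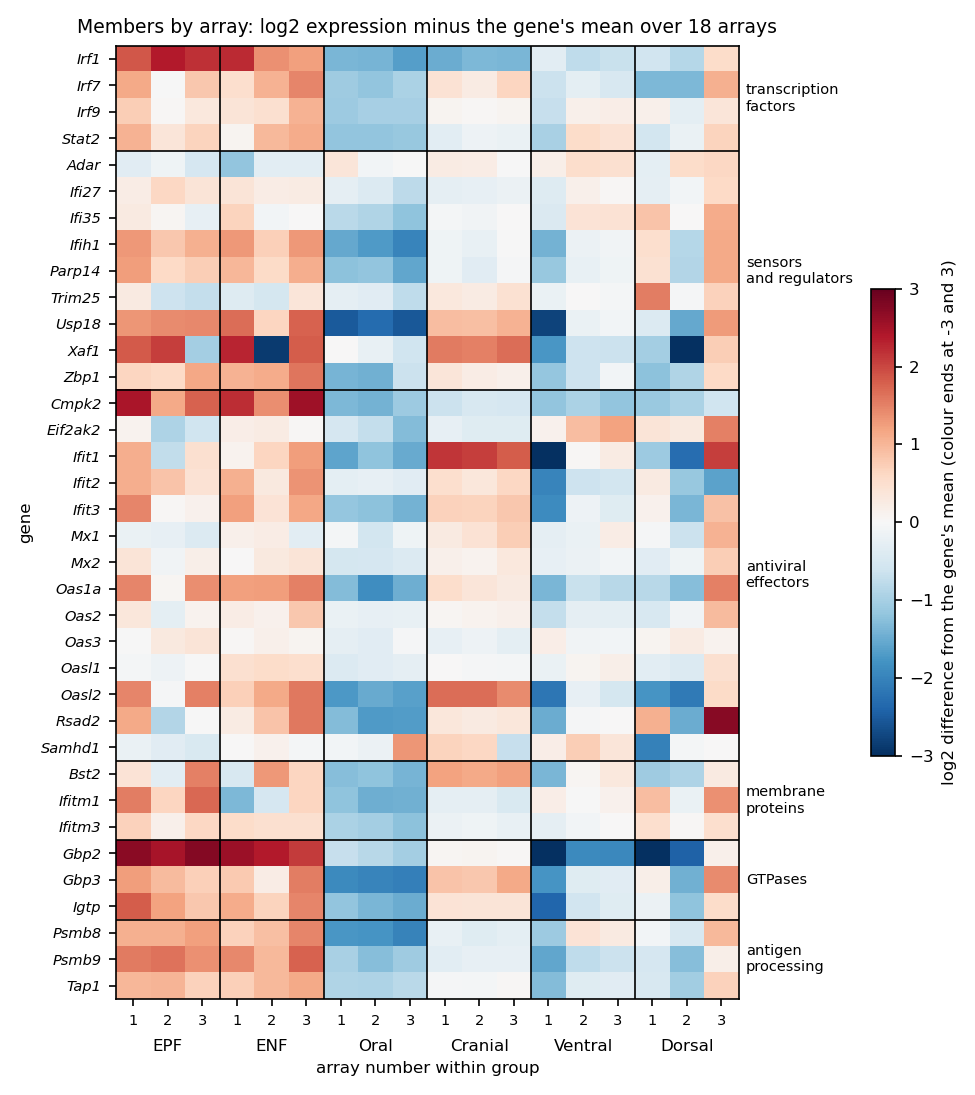
Log2 expression of each of the 36 genes (down the page, grouped by role) on each of the 18 arrays (across), coloured relative to the gene's mean over the arrays. Oral is the lowest of the 4 sites for 30 of the 36 genes. For these genes, though not over all genes in Dorsal, Ventral array 1 and Dorsal array 3 stand apart from the other arrays of their groups.

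The cells were checked against markers. Pdgfra, a fibroblast receptor, averaged 11.53 to 13.17 and Col1a1, a collagen chain, 13.22 to 13.85 over the 6 groups. Ptprc, which encodes CD45, averaged 3.82 to 4.21 and Pecam1, which encodes CD31, 3.77 to 4.09. The lower quartile of an array lay at 3.93 to 4.10, and a group mean no higher than it is called near background here, as were those of Ptprc in 5 of the 6 groups and Pecam1 in 4. Other members of these lists ranged from near background to well above it. Itgam and Aif1 of the leukocyte list and Tie1 and Emcn of the endothelial list were near background in all 6 groups. The leukocyte genes Cd53, Tyrobp, Cd68, Adgre1 and Coro1a averaged 3.85 to 4.86. Brighter genes were picked after their values were seen. The leukocyte genes Laptm5, Cd3e and Lyz2 averaged 8.63 to 12.30, 6.38 to 6.67 and 5.64 to 7.04, and the endothelial receptor gene Kdr 6.55 to 8.87. Epcam, which encodes the EpCAM sorted against, averaged 8.43 to 9.11. Laptm5 had 5 probe sets and Epcam 2, of which the brightest stood for the gene. The mean over 13 leukocyte markers ranged over arrays from 5.10 to 5.43 in EPF, 4.89 to 5.10 in ENF, 5.20 to 5.47 in Oral, 5.40 to 5.48 in Cranial, 5.52 to 5.54 in Ventral and 5.01 to 5.73 in Dorsal. Csf1r, a myeloid receptor, averaged 9.88 in EPF and 6.48 to 7.67 in the other groups. Krt14, a basal keratinocyte keratin, averaged 5.35 ± 0.91 in EPF and 8.38 ± 2.24 in ENF (SD, n = 3 each), and 4.77 to 5.22 at the 4 sites. Tek, which encodes the Tie2 used as a negative sort marker, averaged 10.20 in EPF and 10.46 in ENF, against 3.75 to 4.27 at the 4 sites.

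Oral against Cranial sets mucosal cells beside skin cells of the same Wnt1Cre line and age. Membrane and antiviral genes, a GTPase and a transcription factor were lower in Oral. Genes were called at a Benjamini-Hochberg adjusted p below 0.05 over all 18193 genes in limma, and all 12 site arrays shared the estimate of spread. By that rule 6 of the 36 genes fell, where 0.731% of all genes fell, and 0 rose, where 0.407% of all genes rose. The difference was negative for 34 of the 36, with a median of -0.93, against 0.04 over all genes.

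Bst2, or tetherin, holds budding virions at the cell surface. Its log2 expression was 7.21, 7.28 and 7.07 on the Oral arrays, against 9.69, 9.62 and 9.71 on the Cranial arrays. The groups did not overlap, and Bst2 fell by 2.49 ± 0.42 (SE; adjusted p = 0.0147), a 5.61-fold difference. Ifitm3, which blocks the entry of enveloped viruses and was the brightest of the 36 genes, read 11.87, 11.78 and 11.59 in Oral and 12.63, 12.68 and 12.59 in Cranial. It fell by 0.89 ± 0.15 (adjusted p = 0.01226), again without overlap. Its relative Ifitm1 read 7.43, 7.19 and 7.19 in Oral and 8.37, 8.37 and 8.19 in Cranial, and this difference of -1.04 was not called.

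Oasl2, an oligoadenylate synthetase-like protein, read 4.98, 5.17 and 5.06 in Oral, against 8.37, 8.36 and 8.12 in Cranial. It fell by 3.21 ± 0.64 (adjusted p = 0.04014), a 9.27-fold difference and the largest among the 6. Gbp3, a guanylate-binding GTPase, read 6.83, 6.76 and 6.68 in Oral and 9.60, 9.56 and 9.88 in Cranial, and fell by 2.92 ± 0.59 (adjusted p = 0.0432). Irf9, the DNA-binding subunit of ISGF3, read 7.02, 7.12 and 7.13 in Oral and 8.19, 8.16 and 8.20 in Cranial. No Oral array reached a Cranial array for either gene, and Irf9 fell by 1.09 ± 0.23 (adjusted p = 0.04987). Cmpk2, a mitochondrial nucleotide kinase, read 4.26, 4.18 and 4.52 in Oral and 4.95, 5.13 and 5.09 in Cranial. It fell by 0.74 ± 0.15 (adjusted p = 0.04419), while its second probe set differed by 0.02. Each of the Cmpk2 values on these arrays lay below the array medians of 5.19 to 5.22. A filter on dim probe sets left the gene out.

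The arrays of Oral lay wholly below those of Cranial for 31 of the 36 genes, against 12.6% of all genes, and wholly above for 0, against 13.3%. The 5 genes with overlapping arrays were Irf1, Oas3, Ifi27, Samhd1 and Adar. Ifit1 and Usp18 had larger differences than any called gene, and were picked out after their values were seen. Ifit1, which binds foreign RNA caps, read 6.33, 6.69 and 6.40 in Oral and 10.05, 9.97 and 9.72 in Cranial, a difference of -3.44 ± 1.09 (adjusted p = 0.2803). Usp18, a protease that takes ISG15 off other proteins and dampens type I receptor signalling, read 5.04, 5.26 and 5.02 in Oral and 8.47, 8.45 and 8.60 in Cranial, a difference of -3.40 ± 0.74 (adjusted p = 0.06064). Both genes were spread widely on the trunk arrays that shared the fit. Ifit1 spanned 4.39 to 8.15 in Ventral and 5.62 to 9.98 in Dorsal, and Usp18 spanned 4.77 to 7.48 in Ventral and 6.02 to 8.83 in Dorsal.

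The number of calls depended on which arrays set the spread. With the 6 Oral and Cranial arrays alone, 29 of the 36 genes fell, where 6.05% of all genes fell, and the SE of Ifit1 became 0.12 (adjusted p = 8.654e-11). The 7 not called there were Irf1, Oas3, Oasl1, Ifi27, Eif2ak2, Samhd1 and Adar. In the fit with all 12 arrays, leaving out any 1 Oral or Cranial array left 0 or 1 called genes. With the 6 arrays alone, a choice added after the data were seen, leaving out each left 28 or 29.

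**Figure D3:**
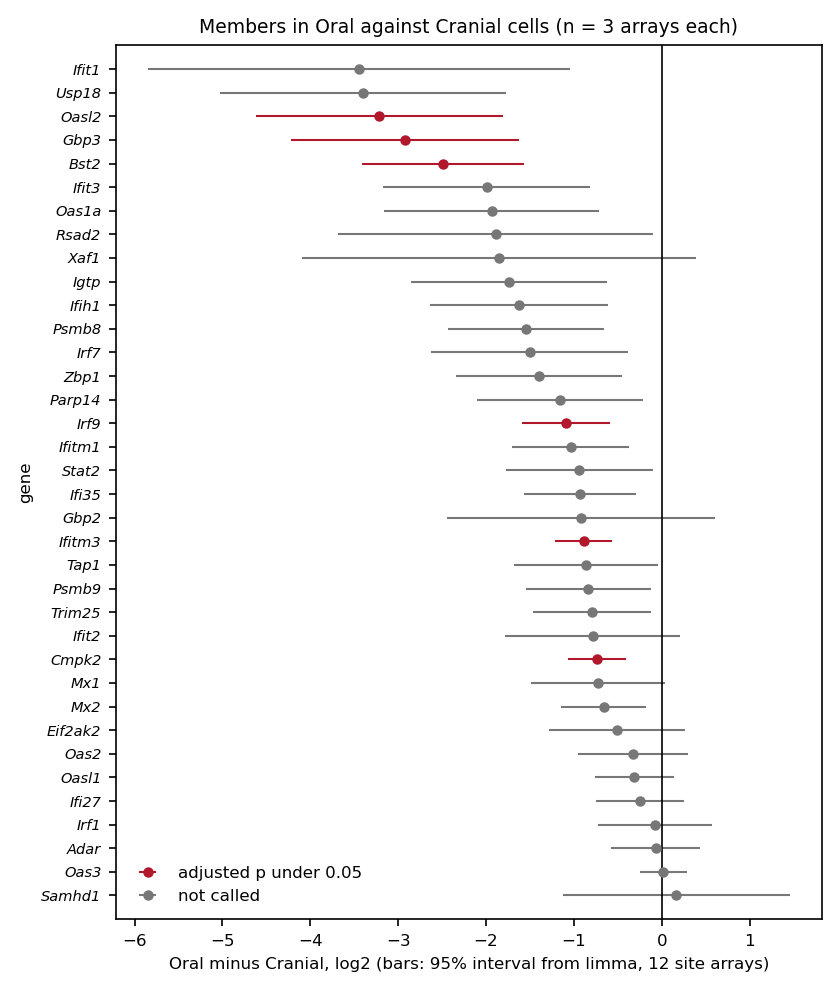
Oral minus Cranial difference in log2 expression for each of the 36 genes with its 95% interval from limma, ordered by size, with the 6 called genes in red. The difference is negative for 34 of the 36 genes, from -3.44 for Ifit1 to 0.17 for Samhd1.

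By role, antigen processing genes were lower in Oral without overlap but not called. Psmb8, a subunit of the immunoproteasome, read 7.08, 7.07 and 6.82 in Oral and 8.60, 8.47 and 8.52 in Cranial. Psmb9, its partner subunit, read 6.45, 6.14 and 6.35 in Oral and 7.11, 7.17 and 7.17 in Cranial. Tap1, a subunit of the peptide transporter, averaged 6.59 ± 0.06 in Oral and 7.45 ± 0.06 in Cranial. Irf1, which drives the interferon gamma response, read 8.52, 8.49 and 8.23 in Oral and 8.40, 8.55 and 8.53 in Cranial, and its groups overlapped with a difference of -0.07 (95% interval -0.72 to 0.57). The difference had a median of -1.74 over the 13 genes with an ISRE core in a window and of -0.85 over the 16 without. The ranges of -3.44 to 0.02 and -3.21 to 0.17 overlapped.

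The remaining genes were not called in the fit of 12 arrays, and all but Oas3 and Samhd1 were lower in Oral. Irf7, which amplifies the production of type I interferon, averaged 6.63 ± 0.11 in Oral and 8.13 ± 0.20 in Cranial, and Stat2, a subunit of ISGF3, averaged 5.41 ± 0.03 in Oral and 6.35 ± 0.09 in Cranial (SD, n = 3 each). Among the effectors, Ifit3 (-1.99), Oas1a (-1.94) and Rsad2 (-1.89) differed most, and Ifit2 (-0.78), Mx1 (-0.72), Mx2 (-0.66), Eif2ak2 (-0.51), Oas2 (-0.33) and Oasl1 (-0.31) less. Oas3, another oligoadenylate synthetase, was dim in both groups, at 4.18 ± 0.16 in Oral and 4.17 ± 0.07 in Cranial. Among sensors and regulators the differences were -1.85 for Xaf1, -1.63 for Ifih1, -1.40 for Zbp1, a sensor of Z-form nucleic acid, -1.16 for Parp14, -0.93 for Ifi35 and -0.80 for Trim25, a ubiquitin ligase acting on RIG-I. Ifi27 (-0.25), Adar (-0.07), an RNA-editing deaminase, and Samhd1 (0.17) overlapped between groups. The GTPases Igtp and Gbp2 differed by -1.74 and -0.91.

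Over all 61 probe sets of the 36 genes, 54 were lower in Oral. Of the 25 probe sets not used, 20 had the sign of the used one and 5 the opposite. The opposite ones belonged to Cmpk2, to Parp14 (-1.16 and 0.08), to Samhd1 (0.17 against -0.23 and -0.09) and to Tap1 (-0.86 and 0.24, the second near background in all 6 groups).

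Genes of the same pathway outside the list were counted from separate lists. Of 35 other interferon-stimulated genes, 32 were lower in Oral than in Cranial, with a median difference of -0.60. For 26 of them the Oral arrays lay wholly below, against 12.6% of all genes. By the limma rule Ddx60 (-1.38, adjusted p = 0.002998) and Slfn2 (-0.78, adjusted p = 0.0438) fell, where 0.731% of all genes fell. Ddx60 was near background in Oral. Of 10 receptor chains and kinases, 1 fell, Jak2 (-0.82, adjusted p = 0.04274), a kinase bound to the interferon gamma receptor. Of 13 sensors and adaptors, 10 genes listed as brakes of signalling, 14 genes of MHC class I and its loading and 6 of MHC class II, 0 were called. The MHC class I list had a median of -0.43, with 8 genes lower without overlap, and the constitutive proteasome list a median of 0.03. Among 5 interferon genes 0 were called between Oral and Cranial. Ifnb1, encoding interferon beta, was dim, averaging 4.14 to 4.65 over the 6 groups, where array medians lay at 5.19 to 5.32. It fell by 0.50 in Oral (adjusted p = 0.02599) and by 0.44 in Cranial (adjusted p = 0.04454) against Dorsal. In these comparisons 6.3% and 7.45% of all genes fell. Ifna1, encoding an interferon alpha, averaged 4.55 to 5.23. It rose by 0.67 in EPF against Dorsal (adjusted p = 0.01918), where 10.9% of all genes rose.

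Other markers moved in the same comparison. Dcn, a matrix proteoglycan, differed by -1.91, Perp, a desmosomal protein, by -1.43, and the pericyte channel genes Kcnj8 and Abcc9 by -1.51 and -1.96, all called. These were 1 of 11 fibroblast, 1 of 11 keratinocyte and 2 of 8 mural markers. The mean over the fibroblast markers ranged from 12.20 to 12.49 in Oral and from 12.66 to 13.04 in Cranial. The mean over the mural markers ranged from 6.67 to 6.82 in Oral and from 7.06 to 7.08 in Cranial. Of 13 leukocyte and 10 endothelial markers, 0 were called. The part of these markers in the result was not tested.

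Oral also shares its arrays with comparisons against Dorsal and Ventral, where Cre line and site change together. Against Dorsal, 11 of the 36 genes fell, where 6.3% of all genes fell, and 0 rose, where 10.5% rose. The 6 largest falls were Ifitm1 (-2.07 ± 0.30, adjusted p = 0.001079), Gbp3 (-2.04 ± 0.59, adjusted p = 0.03686), Ifih1 (-2.01 ± 0.46, adjusted p = 0.0129), Psmb8 (-1.97 ± 0.40, adjusted p = 0.007303), Ifi35 (-1.64 ± 0.29, adjusted p = 0.003295) and Parp14 (-1.57 ± 0.43, adjusted p = 0.02909). Ifih1 encodes MDA5, a sensor of viral RNA, and Parp14 an ADP-ribosyltransferase. The other called genes were Eif2ak2, Ifitm3, Irf1, Trim25 and Irf9. Eif2ak2 differed by -1.56 on its brightest probe set, while its other probe sets were dim and higher in Oral (4.93 and 4.74, against 4.54 and 4.58 in Dorsal), and with the mean of the probe sets it was not called (-0.34, adjusted p = 0.4475). Gbp3 differed by -2.78 without Dorsal array 2 and by -1.35 without Dorsal array 3, where it was not called. The arrays of Oral lay wholly below those of Dorsal for 17 genes, against 14.8% of all genes, and wholly above for 0, against 15.3%.

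Against Ventral, 6 genes fell, where 4.31% of all genes fell, and 0 rose, where 10.3% rose. They were Psmb8 (-1.71 ± 0.40, adjusted p = 0.01638), Eif2ak2 (-1.58 ± 0.35, adjusted p = 0.01235), Ifitm1 (-1.47 ± 0.30, adjusted p = 0.008132), Ifi35 (-1.11 ± 0.29, adjusted p = 0.02583), Ifitm3 (-0.95 ± 0.15, adjusted p = 0.001582) and Irf9 (-0.91 ± 0.23, adjusted p = 0.02144). Eif2ak2, which encodes PKR, a kinase that halts translation on viral RNA, was not called with the mean of its probe sets (-0.61, adjusted p = 0.1692). Arrays did not overlap for 15 genes that were lower in Oral, against 19.7% of all genes. They did not overlap for 4 that were higher, Ifit2, Oas2, Xaf1 and Gbp2, against 24.8%. The other probe set of Xaf1 was lower in Oral, at 7.59, against 8.53 in Ventral and 8.92 in Dorsal. The count against Ventral was 10 without Ventral array 1, 3 without Oral array 2 or Ventral array 2 and 2 without Oral array 3 or Ventral array 3. These were all lower in Oral. Against Dorsal, 1 gene was higher and 17 lower without Dorsal array 1, and 2 were higher (Xaf1 and Gbp2) and 9 lower without Dorsal array 3. Lower genes alone were called without Dorsal array 2 (16), without Oral array 2 (7) and without Oral array 3 (6).

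Markers moved in these comparisons too. Against Dorsal, Dcn (-2.40) and Pdgfrb (-0.60) fell among 11 fibroblast markers, Krt14 (-0.44) and Krt1 (-0.41) fell and Perp (0.98) rose among 11 keratinocyte markers, Kdr (-0.65) fell among 10 endothelial and Cd53 (-0.76) among 13 leukocyte markers, and 0 of 8 mural markers were called. Against Ventral, Dcn (-2.06), Kdr (-0.48) and the smooth muscle myosin gene Myh11 (-1.05) fell, Perp (0.76) rose, and 0 leukocyte markers were called. The fibroblast mean ranged from 12.20 to 12.49 in Oral, against 11.90 to 12.59 in Ventral and 12.31 to 13.14 in Dorsal. The part of these markers in the result was not tested.

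Over the comparisons between sites, Ifitm3 was called in 4 and Irf9, Ifitm1, Bst2 and Oasl2 in 3 each, the most of the 36 genes. Ifitm3 read 12.54, 12.73 and 12.82 in Ventral and 13.32, 12.84 and 13.31 in Dorsal, so each Oral array was below every array of the other 3 sites. Irf9 read 7.42, 8.26 and 8.31 in Ventral and 8.26, 7.81 and 8.47 in Dorsal, again above every Oral array. Ifitm1 read 8.83, 8.62 and 8.77 in Ventral and 9.57, 8.45 and 10.01 in Dorsal. The highest Oral array, at 7.43, was below the lowest array of the other sites, at 8.19.

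Cranial against the trunk gave called higher genes in numbers near the shares of all genes. Against Dorsal, 3 rose, where 11.2% of all genes rose, and 3 fell, where 7.45% fell, counts that lie near those shares. Its arrays lay wholly above those of Dorsal for 4 genes, against 16.5% of all genes, and wholly below for 6, against 19%. The 3 that rose were Xaf1 (3.26 ± 1.02, adjusted p = 0.04718), a pro-apoptotic protein, Oasl2 (2.69 ± 0.64, adjusted p = 0.01543) and Bst2 (1.77 ± 0.42, adjusted p = 0.01546). The 3 that fell were Irf1 (-1.12 ± 0.29, adjusted p = 0.02422), Ifitm1 (-1.04 ± 0.30, adjusted p = 0.03617) and Ifitm3 (-0.52 ± 0.15, adjusted p = 0.03037). Without Dorsal array 3 the count became 12 higher and 1 lower, with array weights 21 higher and 5 lower, with only the 6 arrays of this comparison Bst2 alone was called, and without any 1 Cranial array 0 or 1 genes were called. Xaf1 read 10.55, 10.50 and 10.67 on the Cranial arrays, against 7.97, 4.24 and 9.73 in Dorsal, and its difference was 1.72 without Dorsal array 2 and 4.47 without Dorsal array 3. Its other probe set was lower in Cranial, at 8.58, against 8.92 in Dorsal, and with the mean of both Xaf1 was not called (1.46, adjusted p = 0.1539). The difference of Oasl2 was 3.53 without Dorsal array 3.

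Against Ventral, 5 genes rose in Cranial, a count near the 11.7% of all genes that rose, and 0 fell, where 6.2% fell. Its arrays lay wholly above those of Ventral for 21 genes, against 27% of all genes, and wholly below for 4, against 27.9%. The 5 that rose were Oasl2 (2.57 ± 0.64, adjusted p = 0.01918), Gbp2 (2.34 ± 0.69, adjusted p = 0.03975), Ifit2 (1.54 ± 0.45, adjusted p = 0.0385), Bst2 (1.53 ± 0.42, adjusted p = 0.02854) and Cmpk2 (0.56 ± 0.15, adjusted p = 0.02642). After a second quantile normalization the split was 3 higher and 2 lower, and with arrays centred on their medians 4 higher and 3 lower. Without any 1 Cranial array 0 were called, and without Ventral array 1 only Eif2ak2, as lower. Without Ventral array 1 the difference of Oasl2 was 1.98 and was not called. The other probe set of Cmpk2 differed by -0.08, and the filter on dim probe sets left the gene out here too. Bst2 read 7.10, 8.53 and 8.79 in Ventral and 7.42, 7.55 and 8.74 in Dorsal, all below Cranial. Oasl2 read 4.54, 6.45 and 6.16 in Ventral and 4.92, 4.58 and 7.27 in Dorsal, also all below Cranial.

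Of the mural markers, Abcc9 (1.86) and Kcnj8 (1.12) rose and Myh11 (-1.06) fell in Cranial against Ventral, and Abcc9 (1.83) and Kcnj8 (1.22) rose against Dorsal. Perp rose by 2.19 against Ventral and 2.41 against Dorsal, and Kdr fell by 0.56 and 0.73. Tek (0.52) rose against Ventral, Krt14 (-0.46) and Krt1 (-0.40) fell against Dorsal, and 0 of 11 fibroblast and 0 of 13 leukocyte markers were called in either. The mural mean ranged from 7.06 to 7.08 in Cranial, from 6.84 to 7.27 in Ventral and from 6.74 to 6.97 in Dorsal. The part of these markers in the result was not tested.

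**Figure D4:**
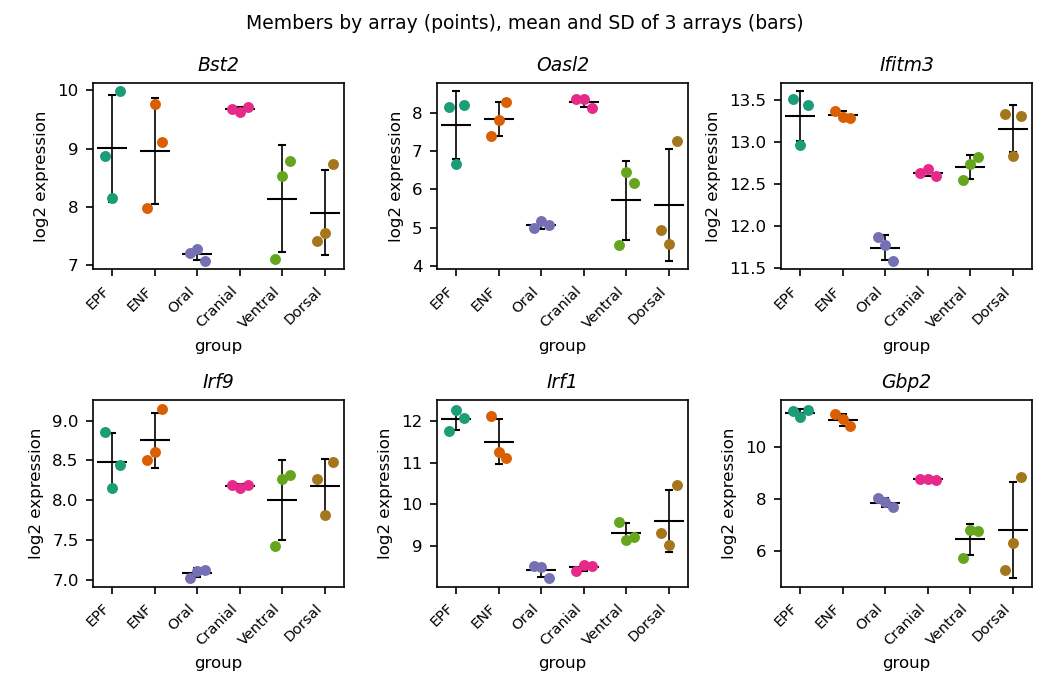
Log2 expression of Bst2, Oasl2, Ifitm3, Irf9, Irf1 and Gbp2 on every array (points), with the mean and SD of each group of 3 arrays (bars). For Bst2 and Oasl2 the Cranial arrays lie above the Oral, Ventral and Dorsal arrays, and for Irf1 the EPF and ENF arrays lie at 11.13 or more and every site array at 10.46 or less.

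Pathway genes outside the list differed between head and trunk sites too. Ifngr2, a chain of the interferon gamma receptor, read 6.92, 6.62 and 6.58 in Oral and 6.86, 6.73 and 6.76 in Cranial. It read 9.03, 8.84 and 8.90 in Ventral and 8.52, 8.24 and 8.40 in Dorsal, with no overlap between head and trunk. The difference was -1.68 for Oral against Dorsal (adjusted p = 1.083e-05) and -2.22 for Oral against Ventral (adjusted p = 1.419e-06). It was -1.60 for Cranial against Dorsal (adjusted p = 2.763e-05) and -2.14 for Cranial against Ventral (adjusted p = 3.953e-06).

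Socs3, a feedback inhibitor of JAK kinases, fell in Oral, with -1.93 against Dorsal and -2.21 against Ventral, and in Cranial, with -2.07 and -2.35. Il10rb, a receptor chain shared with interleukin-10, and Pias1, a brake on cytokine signalling, rose in each of these 4 comparisons, Il10rb by 1.26, 0.67, 1.42 and 0.83 and Pias1 by 1.73, 1.01, 1.64 and 0.91. Ddx58, encoding the RNA sensor RIG-I, rose in Cranial by 1.52 against Dorsal and 1.45 against Ventral. The type I receptor chain Ifnar2 rose in Cranial by 0.74 and 0.70. Of the 35 other interferon-stimulated genes, 7 rose and 0 fell in Cranial against Dorsal, where 11.2% and 7.45% of all genes did. Against Ventral 9 rose and 0 fell, where 11.7% and 6.2% did. Rtp4, a chaperone of receptor transport, led both, at 1.95 and 2.23. In Oral 2 rose and 1 fell in each comparison with the trunk, where 10.5% and 6.3% of all genes did against Dorsal and 10.3% and 4.31% against Ventral. Ifi30, a lysosomal thiol reductase, rose by 0.74 against Dorsal and 1.03 against Ventral. Pml, which forms nuclear bodies, rose by 0.52 against Dorsal, and Ifitm2, a relative of Ifitm3, by 1.44 against Ventral. Slfn2, of the schlafen family, fell by 0.63 and 1.02.

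**Figure D5:**
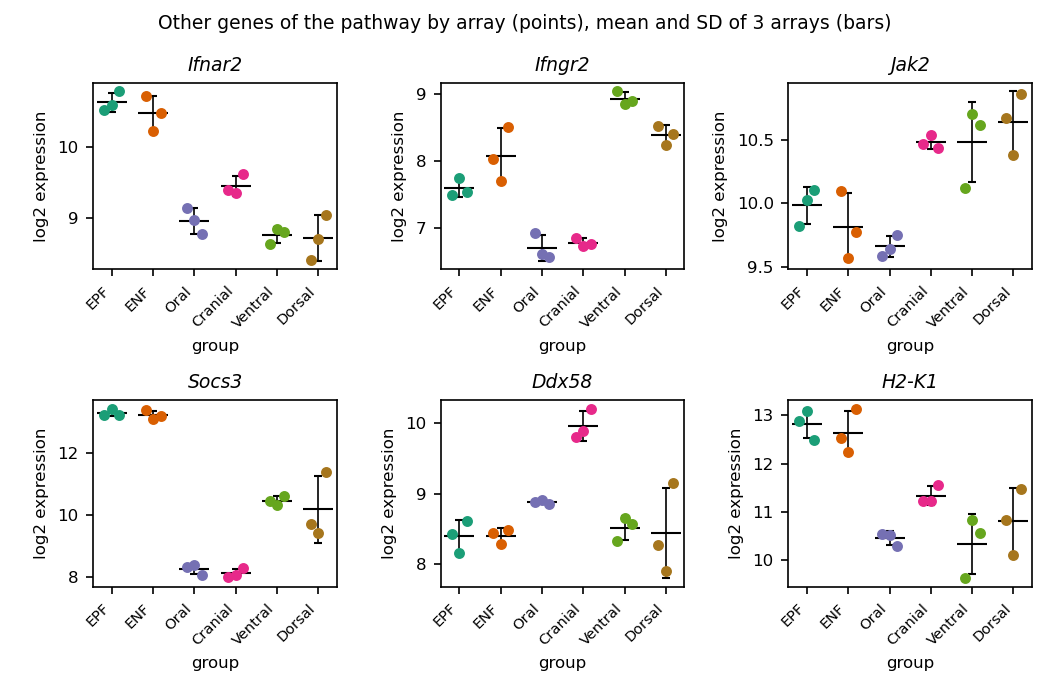
Log2 expression of the pathway genes Ifnar2, Ifngr2, Jak2, Socs3, Ddx58 and H2-K1 on every array (points), with the mean and SD of each group of 3 arrays (bars). Ifngr2 lies at 6.58 to 6.92 on the Oral and Cranial arrays and at 8.24 to 9.03 on the Ventral and Dorsal arrays.

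Ventral against Dorsal compares trunk sites of the same line and age. In limma 0 of the 36 genes were called, where 0.0275% of all genes were, and 2 had an unadjusted p below 0.05, against 8.55% of all genes. The median difference was -0.28. The largest differences were Rsad2 (-1.27 ± 0.81, adjusted p = 0.667), which encodes viperin, Samhd1 (1.13 ± 0.59, adjusted p = 0.6231), a nucleotide hydrolase, and Gbp3 (-0.87 ± 0.59, adjusted p = 0.6823). The 95% interval of Rsad2 reached from -3.06 to 0.52, so for this widely spread gene a difference of several fold is not excluded. The SE ranged from 0.12 to 1.09 over the 36 genes, with a median of 0.39. Arrays did not overlap for Samhd1, higher in Ventral, and Ifitm3, lower in Ventral, against 4.68% and 5.44% of all genes. Another probe set of Samhd1 was also higher in Ventral, at 9.7, against 8.8 in Dorsal. Its remaining probe sets were lower, at 9.2, 8.5 and 6.1 in Ventral, against 9.5, 8.6 and 6.3 in Dorsal.

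Taking the 4 sites at once, limma's F test called 13 of the 36 genes, where it called 21.1% of all genes. They were Ifitm3 (adjusted p = 0.0004007), Ifitm1 (adjusted p = 0.003368), Bst2, Ifi35, Irf9, Oasl2, Eif2ak2, Psmb8, Gbp3, Cmpk2, Irf1, Usp18 and Ifih1. Without any 1 Oral or Cranial array it called 6 to 8 of the 36, and without any 1 Dorsal array 21.

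EPF against ENF sets En1-lineage cells beside the other cells of the same dorsal dermis. In limma 0 of the 36 genes were called, where 0.308% of all genes were, and 3 had an unadjusted p below 0.05, against 10.8% of all genes. The median difference was -0.06, with 13 genes higher and 23 lower. The largest differences were Ifitm1 (1.69 ± 0.50, adjusted p = 0.2781), Rsad2 (-0.82 ± 0.52, adjusted p = 0.6313) and Eif2ak2 (-0.63 ± 0.26, adjusted p = 0.4351). Ifitm1 read 10.17, 9.28 and 10.36 in EPF, against 7.29, 8.15 and 9.29 in ENF, and the groups overlapped by 1 array. In a fit of all 18 arrays together Ifitm1 alone was called. The arrays did not overlap for Oasl1 and Samhd1, both lower in EPF, against 8.34% of all genes, and for 0 that were higher, against 8.7%. Some other probe sets of Samhd1 were also lower in EPF (9.95 and 9.12, against 10.01 and 9.39 in ENF). Others were higher in EPF (9.60 and 6.79, against 9.51 and 6.27 in ENF).

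The 95% intervals give the range of differences that the values of each gene allow, without the adjustment over all genes that the calls use. Ifitm3 read 13.51, 12.96 and 13.43 in EPF and 13.37, 13.30 and 13.29 in ENF, and the interval of its difference reached from -0.44 to 0.41. That of Gbp2 reached from -0.13 to 0.70, that of Psmb8 from -0.41 to 0.60 and that of Irf1 from -0.13 to 1.19. Over the 36 genes the interval was 0.64 to 6.47 wide, with a median of 1.21. It reached from -1.24 to 1.33 for Bst2 and from -2.69 to 3.79 for Xaf1, the widest. Bst2 read 8.88, 8.15 and 9.98 in EPF and 7.99, 9.77 and 9.12 in ENF, and Oasl2 read 8.16, 6.66 and 8.21 in EPF and 7.40, 7.82 and 8.28 in ENF. Irf9 read 8.86, 8.15 and 8.44 in EPF and 8.50, 8.60 and 9.15 in ENF. The groups overlapped for each of these genes. In every pathway list 0 genes were called between EPF and ENF. Marker lists differed between these groups. All 8 mural markers were higher in EPF without overlap (median difference 1.46), with Acta2 (1.67) and Myh11 (2.29) called, and the mural mean ranged from 9.09 to 9.28 in EPF and from 7.56 to 7.97 in ENF. Of 11 keratinocyte markers 10 were lower in EPF (median -3.13), with Trp63 (-4.13) called, and the keratinocyte mean ranged from 5.16 to 8.23 in EPF and from 7.73 to 9.89 in ENF. Their part in the values of the 36 genes was not tested.

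EPF and Dorsal carry the same labels of tissue, line and sort but another age label, and age and other differences between these collections cannot be told apart. Of the 36 genes, 4 rose in EPF, a count near the 10.9% of all genes that rose, and 0 fell, where 5.94% fell. Gbp2, a guanylate-binding GTPase, read 11.40, 11.17 and 11.45 in EPF, against 5.25, 6.28 and 8.85 in Dorsal. It rose by 4.55 ± 0.84 (adjusted p = 0.01399), or 23.4-fold, and every EPF array was above every Dorsal array. The difference was 5.58 (47.9-fold) without Dorsal array 3 and 3.78 (13.7-fold) without Dorsal array 1. Without any 1 EPF array or without Dorsal array 2 it was not called (adjusted p from 0.05206 to 0.06406). Irf1 read 11.77, 12.28 and 12.08 in EPF, against 9.33, 9.04 and 10.46 in Dorsal, and rose by 2.43 ± 0.38 (adjusted p = 0.007392). Cmpk2 read 8.04, 6.73 and 7.37 in EPF and 4.48, 4.64 and 5.0 in Dorsal, and rose by 2.67 ± 0.34 (adjusted p = 0.003439). The groups did not overlap for either gene. The second probe set of Cmpk2 was higher in EPF by only 0.22, at 4.90, against 4.68 in Dorsal. Psmb9 rose by 2.06 ± 0.35 (adjusted p = 0.01068), with 8.93 ± 0.13 in EPF and 6.87 ± 0.73 in Dorsal (SD, n = 3 each).

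Arrays did not overlap for 10 genes that were higher in EPF, against 20.2% of all genes, and for 1 that was lower, Eif2ak2, against 16.3%. Ifitm3 (0.14) and Ifitm1 (0.59), which fell in Oral against both trunk sites, were not called here. Without Dorsal array 3 the count of genes called became 13, all higher in EPF, and without EPF array 2 it became 2, Irf1 and Cmpk2.

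Genes of the pathway lists were called in the same comparison, where 10.9% of all genes rose and 5.94% fell. Of 14 genes of MHC class I and its loading, 7 rose and 0 fell, led by H2-D1 (2.54), Tap2 (2.46) and H2-M3 (2.26). Of 35 other interferon-stimulated genes, 11 rose and 0 fell, led by Ifi47 (2.74), Slfn5 (2.63) and Ifitm2 (2.30). Of 10 genes listed as brakes of signalling, 5 rose and 1 fell, with Socs3 at 3.14. The 5 include Isg20 (1.56), which encodes an exonuclease and not an inhibitor of signalling. Of 10 receptor chains and kinases 4 rose and 1 fell, with Il10rb at 2.99, Ifnar2 at 1.92 and Ifngr2 at -0.79. Of 14 constitutive proteasome subunits 0 rose and 3 fell, with Psmb3 at -1.32. Of the markers, 5 of 8 mural and 4 of 11 fibroblast genes were called higher in EPF, and 1 mural gene, Acta2, lower. Called higher too were 2 of 10 endothelial, 2 of 11 keratinocyte and 1 of 13 leukocyte markers, counts near the share of all genes. The mural mean ranged from 9.09 to 9.28 in EPF and from 6.74 to 6.97 in Dorsal. The endothelial mean ranged from 5.43 to 5.91 in EPF and from 4.86 to 4.92 in Dorsal, and Tek itself averaged 10.20 in EPF and 3.97 in Dorsal. The keratinocyte mean ranged from 5.16 to 8.23 in EPF and from 5.02 to 5.28 in Dorsal. Their part in the result was not tested.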

How the data were processed

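Expression was measured on 18 arrays of the Mouse Genome 430 2.0 design of Affymetrix. The authors' deposited table holds log2 values in 1 column for each array. The authors made them in R with RMA, which includes quantile normalization, as the design text of the series and the notes on processing say. The RMA version is not given in the sources used here. Arrays give no read depth, so the number of arrays limits the precision. Per the labels, groups and replicate numbers are those of the sample titles.

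Of 45101 probe sets, 64 controls were set aside, and 34945 carried 1 symbol in the platform annotation, 932 several and 9160 none. Of those with 1 symbol, 34741 matched the GRCm38.p6 gene table by Entrez identifier. The brightest probe set per gene gave 18193 genes. Differences were tested in R 4.3.3 by lmFit and eBayes of limma 3.58.1, with no filter on dim values, and called at a p below 0.05 after Benjamini-Hochberg adjustment over every gene. EPF and ENF, and EPF and Dorsal, were fitted on their 6 arrays and the 4 sites on their 12. Comparisons that share a group share its arrays. The script was tested on simulated data. Arrays of the same number did not deviate together (correlations from -0.384 to 0.302, not above 0.1 for all 3 numbers in any comparison), so numbers were not used as pairs. Cross-hybridization between close relatives, such as the Oas1, Ifit or class I genes, was not tested.

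Alternatives were a filter on dim probe sets, the mean of a gene's probe sets, a fit of all arrays, array weights, trended robust eBayes, further normalization, array number as a block, the 6 arrays of a comparison alone, and each array left out. Named with values were up to 6 called genes per direction in each comparison, the 3 largest differences where fewer were called, up to 3 called genes per pathway list and direction, and 6 markers. Others named were chosen after their values were seen. The members and lists were chosen with earlier results of these data known. Promoter windows were searched with Python 3.11.15, pandas 2.3.3 and numpy 2.4.6, and plots were drawn with matplotlib 3.10.9.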

Additional observations from a re-analysis of the deposited data

How the results depend on the processing

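Counts of the 36 genes called moved with the arrays and the weighting. Of the 600 values recomputed for the 38 called single-gene differences, 448 were still called. None changed sign, but several alternatives leave the group means as they are and so could not change it. Leaving out 1 array could not reverse a difference between arrays that did not overlap either. Of 14 called differences with further probe sets, 4 had a further probe set of the opposite sign. With array weights the counts called were 28 for Oral against Cranial (all lower), 4 for Ventral against Dorsal (all higher), 19 for Oral against Dorsal (3 higher, 16 lower), 25 for Oral against Ventral (1 higher, 24 lower), 26 for Cranial against Dorsal (21 higher, 5 lower), 22 for Cranial against Ventral (18 higher, 4 lower), 22 for EPF against Dorsal (20 higher, 2 lower) and 35 for the 4 sites. With only the 6 arrays of a comparison they were 29 for Oral against Cranial and 5 for Oral against Dorsal (all lower), 13 for Oral against Ventral (1 higher, 12 lower), 1 for Cranial against Dorsal (higher) and 22 for Cranial against Ventral (19 higher, 3 lower). Fitting all 18 arrays gave 1 for EPF against ENF (higher) and 11 for EPF against Dorsal (9 higher, 2 lower). With array number as a replicate block the counts were 3 for Oral against Cranial (all lower) and 7 for EPF against Dorsal (6 higher, 1 lower), and no other count moved by over 1.5 times. Centring arrays on their medians gave 18 for Oral against Dorsal (all lower). The cause of these shifts was not tested.

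Leaving out 1 array at a time gave 0 to 0 for EPF against ENF, 0 to 29 for Oral against Cranial (28 to 29 on its 6 arrays alone, 0 to 1 otherwise), 0 to 1 for Ventral against Dorsal, 6 to 18 for Oral against Dorsal, 2 to 10 for Oral against Ventral, 0 to 13 for Cranial against Dorsal, 0 to 3 for Cranial against Ventral, 2 to 13 for EPF against Dorsal and 6 to 21 for the 4 sites. In every alternative run, Irf9, Ifi35, Ifitm1, Ifitm3 and Psmb8 were called lower in Oral against Dorsal, Ifitm1 and Ifitm3 lower in Oral against Ventral, and Irf1 and Cmpk2 higher in EPF against Dorsal. With 3 arrays a group, and Dorsal and Ventral arrays that differ among themselves, a missed threshold does not show equal levels.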

Other observations

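The spread within the trunk groups reached genes outside the list. Of the 11 fibroblast markers, Dorsal array 3 was the highest of its group for 9 and Ventral array 1 the lowest for 8. Their mean was 11.90, 12.59 and 12.57 on the Ventral arrays and 12.31, 12.44 and 13.14 on the Dorsal arrays. Among them, Lum, a matrix proteoglycan picked after its values were seen, read 5.65, 9.55 and 9.62 in Ventral and 8.82, 8.68 and 12.02 in Dorsal. Cxcl10, a chemokine induced by interferon gamma, read 6.03, 6.59 and 6.78 in Ventral and 6.71, 5.47 and 9.16 in Dorsal, and was also picked after its values were seen. Socs3 read 10.44, 10.31 and 10.61 in Ventral and 9.72, 9.40 and 11.41 in Dorsal, high in Dorsal array 3 but not low in Ventral array 1.

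Xist, the X-inactivation RNA, read 5.20 on EPF array 2 and 4.98 on ENF array 1, against 10.48 to 12.13 on the other 16 arrays. The 36 genes averaged 8.54 on that EPF array, below the other EPF arrays (8.73 and 9.05), and 8.77 on that ENF array, between the other ENF arrays (8.62 and 9.12).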
